A study of Arabidopsis thaliana with 12 samples.

Results

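Chromosome contacts made by RNA-directed DNA methylation (RdDM) targets were examined in seedlings that lack Pol V, through 3 deposited lists, 1 for each *nrpe1* Hi-C library. A list names the *nrpe1* differentially methylated regions (DMRs) that had at least 1 called interaction in that library. The members were chosen by genotype and replicate number in the sample labels, and they are 3 of the 6 lists analysed here. Together they named 215 different DMRs of the 541 named in all 6 lists. The *nrpe1* plants carried the nrpd1b-11 allele in the Col-0 background. The *ago4* plants, used here for comparison, carried ago4-1 introgressed into Col-0. All Hi-C libraries came from above-ground tissue of seedlings grown in long days for 2 to 3 weeks per the labels, crosslinked with formaldehyde and digested with *Dpn*II. Each genotype had 3 Hi-C libraries. Lists of Col-0, the wild type, were not analysed here, so no ratio of *nrpe1* to wild type is given. The lists hold no labelled read counts, and 2 unlabelled numbers on each line were not used. Library depth and contact strength were therefore not known here. An unlisted DMR may have had contacts that were not detectable, and *NRPE1* itself could not be checked. Each genotype is represented by 1 mutant allele. The study's methods describe 3 biological replicates, and p-values weigh the differences between same-numbered libraries. An exact sign-flip p is 0.25 whenever all 3 differences share a sign, whatever their spread.

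Pol V is a plant-specific RNA polymerase, and NRPE1 is its largest subunit. In RdDM, Pol V transcribes target loci, and its transcripts are bound by small RNAs held in argonaute proteins such as AGO4. This brings the DNA methyltransferase DRM2, which methylates cytosines in all contexts including CHH, where H is A, C or T. The targets are mostly transposons and other repeats, many of them short and close to genes. An *nrpe1* DMR is a region where DNA methylation depends on Pol V, so the *nrpe1* lists name sites that by their definition lack this methylation in the plants examined. Methylation was not measured in the lists. Hi-C joins DNA ends that lie near each other in crosslinked nuclei. *Dpn*II cuts at GATC, so GATC sites set where such ends can arise. Positions below run from the first to the last base of a DMR on the plus strand of TAIR10.1.

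The 13 DMRs found in all 3 *nrpe1* lists were the most recurrent sites, and 5 of them are no longer than 300 bp. These 5 are shown to illustrate the short sequences that were listed in every *nrpe1* library, with *Dpn*II sites (GATC, which reads the same on both strands) in capitals.
chr1:10579377-10579500: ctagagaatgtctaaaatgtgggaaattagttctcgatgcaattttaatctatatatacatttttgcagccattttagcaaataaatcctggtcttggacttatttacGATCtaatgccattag
chr2:5578-5778: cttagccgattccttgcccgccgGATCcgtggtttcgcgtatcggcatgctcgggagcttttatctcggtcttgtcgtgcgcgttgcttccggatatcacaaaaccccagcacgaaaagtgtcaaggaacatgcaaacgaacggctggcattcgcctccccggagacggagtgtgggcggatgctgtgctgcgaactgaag
chr2:1420782-1421002: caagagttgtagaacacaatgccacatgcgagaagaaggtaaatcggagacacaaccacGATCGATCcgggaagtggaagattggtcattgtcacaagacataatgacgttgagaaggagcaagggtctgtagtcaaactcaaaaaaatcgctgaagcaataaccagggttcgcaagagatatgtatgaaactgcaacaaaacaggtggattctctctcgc
chr2:1992560-1992764: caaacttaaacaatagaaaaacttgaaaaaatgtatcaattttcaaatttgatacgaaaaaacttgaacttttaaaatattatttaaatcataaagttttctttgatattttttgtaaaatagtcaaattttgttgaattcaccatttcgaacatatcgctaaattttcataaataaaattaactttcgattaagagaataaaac
chr4:6180197-6180432: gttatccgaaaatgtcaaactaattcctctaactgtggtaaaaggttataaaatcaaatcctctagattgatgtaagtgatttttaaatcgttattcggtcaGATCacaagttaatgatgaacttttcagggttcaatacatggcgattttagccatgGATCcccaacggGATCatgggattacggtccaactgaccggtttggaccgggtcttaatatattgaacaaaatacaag
The shown sequences carried 1, 1, 2, 0 and 3 GATC sites in the order printed. In chr2:1420782-1421002 both sites stand next to each other. Of nuclear windows of the same lengths, 34.3% (124 bp), 48.8% (201 bp), 52.0% (221 bp), 49.5% (205 bp) and 54.2% (236 bp) held a GATC. A DMR could be listed without a GATC of its own. Contacts were counted between windows of 250 bp, which can reach past a DMR. Among the 13 DMRs, 9 held a GATC, and among all 215 DMRs 149 did (69.3%). Base composition differed widely among the 5. The DMR at 1992560 on chromosome 2 had a GC content of 19.5%, the lowest among all 215 DMRs. The DMR at 5578 on chromosome 2 had 57.7%, the highest.

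The number of listed DMRs differed several-fold between the *nrpe1* libraries. There were 50, 176 and 65 DMRs in replicates 1, 2 and 3, a mean of 97 ± 68.8 (SD, n = 3). Replicate 2 stood above the other two, so its list carries most of the 291 entries. Most DMRs were seen once. Of the 215 DMRs, 152 were in 1 list, 50 in 2 lists and 13 in all 3, so that 63 (29.3%) recurred. The plot of list composition shows how unevenly this was spread.

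**Figure D1:**
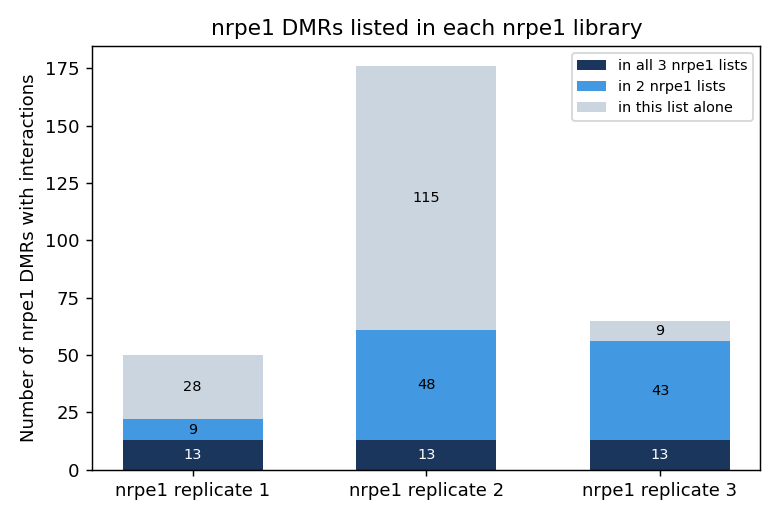
Number of *nrpe1* DMRs with interactions (y axis) in each *nrpe1* library (x axis), split by how many of the 3 *nrpe1* lists hold the DMR. Replicate 2 holds 115 DMRs found in no other *nrpe1* list, replicate 1 holds 28 and replicate 3 holds 9.

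Replicate 3 was largely contained in replicate 2. Of its 65 DMRs, 54 were also in replicate 2 (83.1%, 95% Wilson interval 72.2% to 90.3%), while these 54 made up 30.7% of the larger list (24.3% to 37.8%). The intervals cover counting error only. Replicate 1 overlapped less with both. It shared 20 of its 50 DMRs with replicate 2 (40%, Wilson interval 27.6% to 53.8%) and 15 with replicate 3 (30%, 19.1% to 43.8%). Of the 50 DMRs in exactly 2 lists, 41 were in replicates 2 and 3, 7 in replicates 1 and 2, and 2 in replicates 1 and 3. The count of 63 recurring DMRs rests on replicates 2 and 3, since without replicate 2 it was 15 and without replicate 3 it was 20. Without replicate 1 it was 54. The share of a list that recurred in another *nrpe1* list was 44%, 34.7% and 86.2% in replicates 1, 2 and 3, and for *ago4* lists it was 49.8%, 62.3% and 78.3%. The mean difference of -8.49 ± 17.9 percentage points (SD, n = 3 pairs) was within the spread between replicates, with a two-sided exact sign-flip p of 0.75. It was -15.7 without replicate 2, -13.1 without replicate 3 and -14.0 with DMRs under 250 bp left out.

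DMRs that recurred in *nrpe1* were more often in the *ago4* lists as well. Of the 152 DMRs in 1 *nrpe1* list, 57 (37.5%) were in any *ago4* list. Of the 50 DMRs in 2 lists it was 38 (76%), and of the 13 in all 3 lists it was 12 (92.3%). All 3 *ago4* lists held 3, 7 and 6 of these, respectively. These shares are a description, and how readily each DMR can be detected in any library was not tested. By library, 30 of 50 DMRs of replicate 1 (60%, Wilson interval 46.2% to 72.4%), 89 of 176 of replicate 2 (50.6%, 43.2% to 57.9%) and 50 of 65 of replicate 3 (76.9%, 65.4% to 85.5%) were in any *ago4* list. Against the *ago4* library of the same number, the shares were 36%, 40.3% and 41.5%. DMRs in no other list of either genotype numbered 16, 75 and 4, which sets replicate 3 apart with 6.15% of its list.

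**Figure D2:**
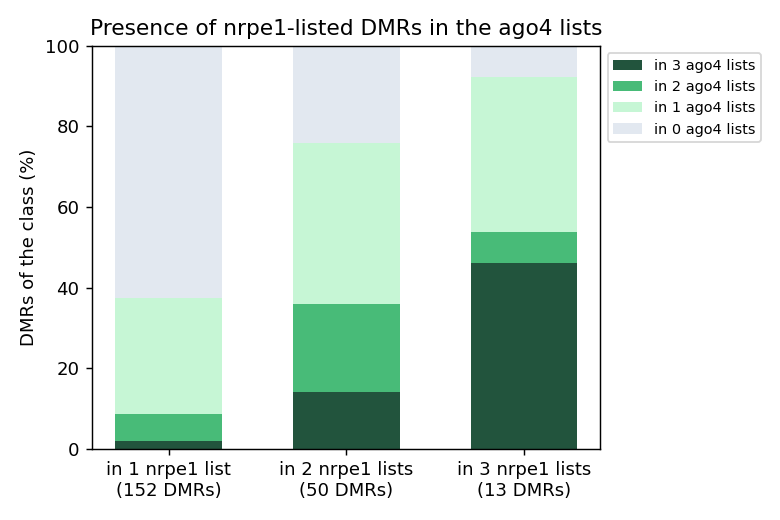
Share of DMRs (y axis, percent) found in 0, 1, 2 or 3 *ago4* lists, for DMRs in 1, 2 or 3 *nrpe1* lists (x axis). DMRs in no *ago4* list fall from 95 of 152 to 12 of 50 and 1 of 13.

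The 13 DMRs found in every *nrpe1* list lay on all 5 chromosomes, and 10 of them were intergenic. Of the 13, 11 lay within 2.5 kb upstream of the start of a protein-coding gene. Of all 215 DMRs, 134 (62.3%) were so placed, with 60%, 63.6% and 67.7% in replicates 1, 2 and 3.

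On chromosome 4, the DMR at 6180197 to 6180432 lay 1449 bp upstream of *TT8* (AT4G09820, plus strand), a bHLH transcription factor that activates flavonoid genes in the seed coat. Among the *ago4* lists only replicate 3 held it. The DMR at 7580305 to 7581590 (1286 bp) lay 1649 bp upstream of *GILT* (AT4G12960), annotated as a thiol reductase, and all *ago4* lists held it. It is the longest of the 13.

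Chromosome 2 carried 5 of the 13. The DMR at 1629 to 2140 lay wholly in AT2G01008 and touched its coding exons. The DMR at 5578 to 5778 was intergenic in the annotation used and lay 3 bp from the rRNA gene AT2G01020. It counts as upstream of a protein-coding gene through AT2G01021, an uncharacterized protein gene 793 bp away. Ribosomal RNA genes stand in long tandem arrays, of which an assembly holds only a part. Of the 36-base words of these DMRs, 40.7% and 50.6%, respectively, occurred once in the assembly (median over the 13 DMRs 86.9%). Both were in all *ago4* lists. The DMR at 1420782 to 1421002 lay 1161 bp upstream of AT2G04170, a TRAF-like protein gene on the minus strand, and was also in every *ago4* list. The DMR at 1992560 to 1992764 lay 274 bp upstream of *GRP9* (AT2G05440), which encodes a glycine-rich protein, the shortest distance among the 11 upstream DMRs. The *ago4* lists of replicates 2 and 3 held it. The DMR at 11162161 to 11163192 overlapped the transcribed pseudogene AT2G26220 and lay 1383 bp upstream of AT2G26230, which encodes urate oxidase, a purine breakdown enzyme. It was the single DMR of the 13 in no *ago4* list.

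On chromosome 1, the DMR at 10579377 to 10579500 lay 2235 bp upstream of *NUDX25* (AT1G30110), a nudix hydrolase, and is the shortest of the 13 with 124 bp. The *ago4* lists all held it. The DMR at 20399384 to 20399876 was 334 bp from AT1G54620, on its downstream side, and lay 2089 bp upstream of AT1G54610. That at 23240148 to 23240608 lay 1504 bp upstream of AT1G62760. AT1G54620 and AT1G62760 are annotated as invertase or pectin methylesterase inhibitors. Both DMRs were in the *ago4* list of replicate 2 alone. On chromosome 3, the DMR at 11099291 to 11100345 touched a non-coding exon part of AT3G29130, annotated as a KxDL motif protein, with 743 of its 1055 bp inside the gene, and *ago4* replicate 2 alone listed it. On chromosome 5, the DMR at 13759158 to 13759811 lay 2012 bp upstream of the protein kinase gene AT5G35580 and was in every *ago4* list. The DMR at 17147387 to 17147713 lay 1095 bp upstream of AT5G42760, annotated as a leucine carboxyl methyltransferase, and held 6 GATC sites, the most among the 13. It was in the *ago4* list of replicate 2 alone.

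Few protein-coding genes of any kind lay near the listed sites, and the pathway genes examined were not among them. Of 23 genes examined, 0 lay within 2.5 kb of a DMR of any *nrpe1* list, and 0 lay that near to a DMR of any *ago4* list. The examined genes comprise 20 RdDM components and the known RdDM targets *ROS1*, *SDC* and *FWA*. Of all 27444 protein-coding genes 310 were that close to a DMR of an *nrpe1* list (1.13%). A count of 0 among 23 is not apart from that share. For the *ago4* lists the share over all genes was not counted. The nearest was *DRD1* (AT2G16390), a chromatin remodeller that Pol V needs at its targets, 8033 bp from the DMR at 7109385 on chromosome 2. *DMS3* (AT3G49250), which works with DRD1, was 11458 bp from one and *RDR2* (AT4G11130), the polymerase that makes small RNA precursors, 12012 bp. *NRPE1* (AT2G40030), the mutated gene, was 631639 bp from the nearest.

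Chromosome 2 held a larger share of the listed DMRs than of the genome in each library. It makes up 16.5% of the nuclear genome and held 34%, 22.2% and 27.7% of the DMRs of replicates 1, 2 and 3 (Wilson intervals 22.4% to 47.8%, 16.7% to 28.9% and 18.3% to 39.6%). The intervals treat DMRs as independent, although DMRs lie near each other and recur between lists, and they are no test of the share. In replicate 2 the lower bound (16.7%) was next to the genome share. In replicate 1, 5 of the 17 chromosome 2 DMRs began between 1629 and 15944, at the chromosome end. Chromosome 4 makes up 15.6% and held 22%, 18.8% and 16.9%, also above its length in each library. Chromosome 5 makes up 22.6% and held 10%, 18.8% and 12.3%, and chromosome 3 makes up 19.7% and held 12%, 14.8% and 15.4%. Both were below their length in every library. Taking each DMR once, chromosome 2 had 2.64 DMRs per Mb, chromosome 4 had 2.10, chromosome 1 had 1.74, chromosome 5 had 1.45 and chromosome 3 had 1.36. The distribution of all published DMRs was not analysed here, so these shares do not separate contacts from the placement of DMRs.

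**Figure D3:**
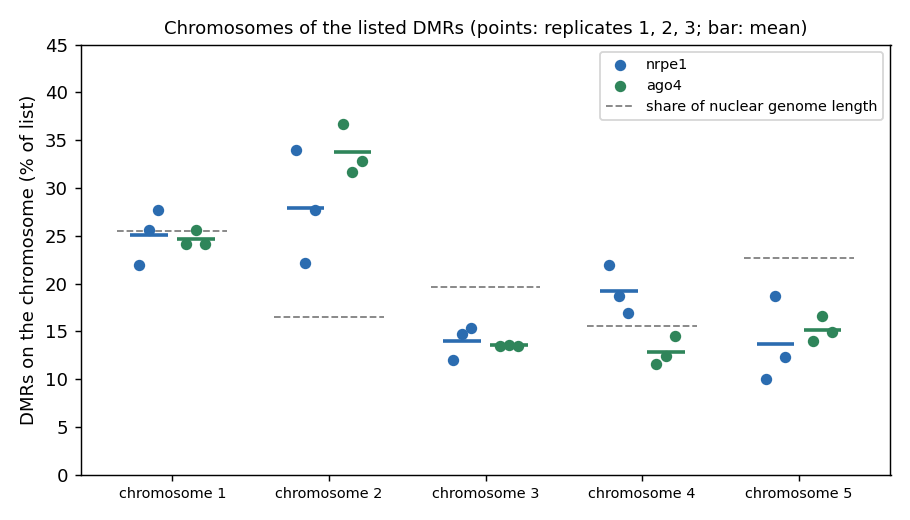
Share of the DMRs of a list on each chromosome (y axis, percent of list) for the 3 *nrpe1* and 3 *ago4* libraries (points), with their mean (bar) and the share of the nuclear genome (dashed line). On chromosome 4 the *nrpe1* points (16.9% to 22%) lie above the *ago4* points (11.6% to 14.5%).

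Compared with *ago4*, *nrpe1* lists placed a larger share of their DMRs on chromosome 4 and a smaller share on chromosome 2. In number, chromosome 4 held 11, 33 and 11 DMRs in *nrpe1* and 25, 33 and 30 in *ago4*. Shares of a list are parts of a whole, so differences on separate chromosomes are not independent. On chromosome 4 the mean share was 19.2% ± 2.57 in *nrpe1* and 12.9% ± 1.47 in *ago4* (SD, n = 3 lists each). The share was higher in *nrpe1* in 3 of 3 replicate numbers, by 10.4, 6.30 and 2.43 percentage points, and the groups did not overlap. A two-sided exact sign-flip test gave p = 0.25, the smallest that 3 pairs allow, and 0.625 after Benjamini-Hochberg adjustment over the 5 chromosomes. On chromosome 2 the share was lower in *nrpe1* in 3 of 3 pairs, with a mean of 27.95% ± 5.92 against 33.8% ± 2.64, the same exact p, and groups that overlapped. *AGO4* itself lies on chromosome 2 (11536502 to 11542391). Sequence that may have come with the introgressed ago4-1 allele was not examined. With DMRs near centromeres left out, the chromosome 2 difference went from -5.81 to -2.75 percentage points and its exact sign-flip p to 0.5. With the first 10 kb of chromosome 2 left out the difference was -7.69, and with DMRs under 250 bp left out it was -6.76. The exact sign-flip test with 3 pairs cannot pass a threshold of 0.05, whatever the size of a difference.

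The entries were spread over many windows. The 1 Mb window with most *nrpe1* entries was 1 to 2 Mb of chromosome 2, with 5, 9 and 5 DMRs in replicates 1, 2 and 3, followed by 0 to 1 Mb of the same chromosome with 5, 7 and 5. In this second window, the 5 DMRs of replicate 1 all lay at the chromosome end, beginning at 1629, 3400, 5578, 15622 and 15944. Of their 36-base words, 40.7%, 43.0%, 50.6%, 68.5% and 32.5%, respectively, occurred once in the assembly. The third was 6 to 7 Mb of chromosome 4 with 2, 9 and 3. These windows held 50 of the 291 entries. The *ago4* lists had 15, 13 and 13 DMRs in the first of them, 8, 8 and 6 in the second and 4, 3 and 3 in the third. In the third window the *nrpe1* lists thus summed to more entries (14) than the *ago4* lists (10), although they hold fewer DMRs in all. That window was itself picked by its *nrpe1* entries, which favours such an excess, and its 14 entries were 9 different DMRs. More *nrpe1* than *ago4* entries were also seen at 16 to 17 Mb of chromosome 3 (13 against 8) and of chromosome 1 (11 against 5). In these windows of chromosomes 4, 3 and 1, replicate 2 supplied most of the *nrpe1* entries. Wider gaps ran the other way elsewhere. At 6 to 7 Mb of chromosome 2 it was 6 against 36, and at 9 to 10 Mb of chromosome 1 it was 3 against 34. At 10 to 11 Mb of chromosome 3 it was 0 against 29. Apart from the chromosome 4 window, the windows in this contrast were picked after their values were seen. At least 1 DMR of an *nrpe1* list was found in 71 of 121 windows, and 24 windows had DMRs of all 3 lists.

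The share of DMRs near the placed centromeres was close to that of the genome. A centromere was placed at the centre of the 1 Mb window with fewest protein-coding genes. On chromosome 2 this window was centred at 4.5 Mb and held 58 such genes, against 15 to 25 on the others. The placement there is thus less sure, and it leaves 1 to 2 Mb of chromosome 2 outside the 2.5 Mb limit. It also enters the alternatives that left out DMRs near centromeres. Within 2.5 Mb of a centromere lay 20%, 23.9% and 16.9% of the DMRs of replicates 1, 2 and 3, while this zone makes up 21.0% of the nuclear genome. In *ago4* the shares were 17.7%, 20.4% and 16.4%. The share was higher in *nrpe1* in 3 of 3 pairs by a mean of 2.10 ± 1.51 percentage points (SD, n = 3), again with an exact sign-flip p of 0.25. The difference was 6.86 percentage points with DMRs under 250 bp left out, and with a limit of 4 Mb the exact p was 0.75. Of DMRs in 1 *nrpe1* list 28.3% lay in this zone, against 14% of those in 2 lists and 2 of the 13 in all 3.

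The listed DMRs were short. Their median length was 394.5, 435 and 352 bp in replicates 1, 2 and 3, and the range over all 215 DMRs was 86 to 11350 bp. The shortest lies at 12719828 on chromosome 4, 56 bp from AT4G24644, and the longest at 1827968 on chromosome 2, where it spans several genes including the pseudogene AT2G05110. Both were in the list of replicate 1 and in no other *nrpe1* list, and the longest was also in *ago4* replicate 1. In all, 49 of the 215 DMRs were under 250 bp, the size of a contact window, and 36 reached 1 kb. Median lengths in *ago4* were 381, 418 and 433 bp. The mean difference of -16.8 ± 55.6 bp (SD, n = 3 pairs) was within the spread between replicates, with an exact sign-flip p of 1. It was -95.5 bp with DMRs under 250 bp left out (exact p = 0.25) and 15.2 bp without replicate 3. Length did not follow recurrence either, with medians of 451, 335.5 and 461 bp in DMRs of 1, 2 and 3 *nrpe1* lists.

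**Figure D4:**
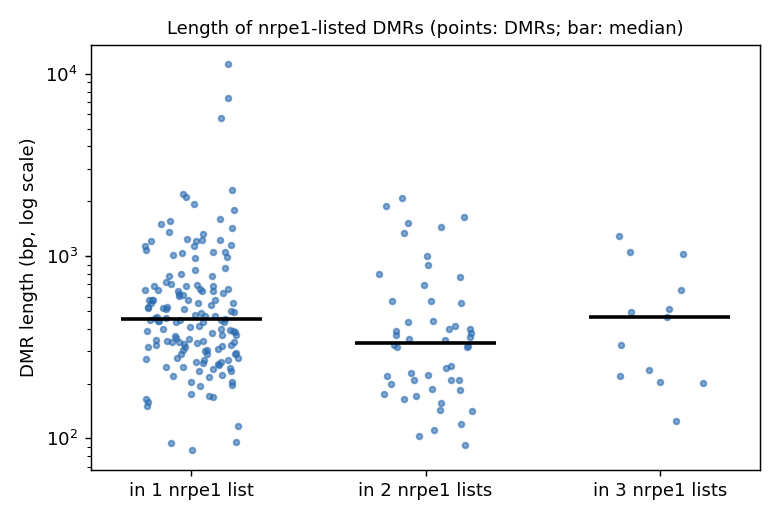
Length of each DMR (y axis, bp, log scale) by the number of *nrpe1* lists that hold it (x axis), with the median as a bar. The medians are 451, 335.5 and 461 bp, and the longest DMRs, up to 11350 bp, were in 1 list.

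Most listed DMRs lay outside genes. Of the 215, 155 (72.1%) were intergenic, 33 (15.3%) touched a protein-coding gene and 27 touched another annotated gene such as a pseudogene. Of the 33, 15 reached a coding exon, 14 touched a non-coding part of an exon and 4 were intronic. Protein-coding genes cover 54.1% of the bases of the nuclear genome, which is not the same measure as a share of DMRs. All published DMRs were not analysed here, so the gene share among DMRs in general is not known. By library, 18%, 14.2% and 15.4% touched a protein-coding gene, against 16.3%, 16.6% and 13.0% in *ago4*, a difference within the spread between replicates (0.554 percentage points, exact sign-flip p = 1, n = 3 pairs). For DMRs within 1 kb of such a gene the difference was 2.96 percentage points (exact sign-flip p = 0.25). For DMRs that touched a protein-coding gene it was -0.339 without replicate 3 and 2.03 without replicate 2. The median distance to the nearest protein-coding gene was 760, 779 and 464 bp in *nrpe1* replicates 1, 2 and 3.

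GC content was alike among the *nrpe1* libraries, while the density of *Dpn*II sites ranged from 2.38 to 3.35 per kb, highest in replicate 1. The median GC content of the DMRs was 32.6%, 31.5% and 32.5%, below that of the nuclear genome (36.03%). The median was higher than in *ago4* (32.2%, 31.3% and 30.8%) in 3 of 3 pairs, by 0.756 ± 0.813 percentage points (SD, exact sign-flip p = 0.25). Without replicate 3 it was 0.292, with DMRs under 250 bp left out it was 0.497, and with DMRs near centromeres left out the exact p was 0.5. There were 24.2, 22.5 and 23.3 CHH cytosines per 100 bp on both strands as medians. In the DMR and 250 bp on each side, the median number of *Dpn*II sites was 3.35, 2.38 and 2.70 per kb, against 3.64 per kb in the genome as a whole. It was higher than in *ago4* (2.79, 2.14 and 2.34) in 3 of 3 pairs, by a mean of 0.385 ± 0.169 per kb (SD, n = 3, exact sign-flip p = 0.25). Within the DMR alone the difference was 0.774 per kb, and the order turned when the flanks were 1 kb (-0.0606 per kb) or when DMRs under 250 bp were left out (-0.0599 per kb).

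The sequence of *nrpe1*-listed DMRs was more often unique in the genome than that of *ago4*-listed ones. The median share of 36-base words (overlapping stretches of 36 bases) that occur once in the assembly was 91.8%, 96.0% and 94.1% in *nrpe1* and 81.0%, 86.9% and 83.1% in *ago4*, so the groups did not overlap. The difference was 10.3 ± 1.01 percentage points (SD, n = 3 pairs, higher in 3 of 3, exact sign-flip p = 0.25). It ranged from 9.04 to 10.9 under the alternatives tried, which include leaving out each replicate and DMRs near centromeres. This measure was chosen after the data were seen. Regions had been filtered for mappability in Hi-C by the authors, and the part of mappability in the difference was not tested. DMRs in *ago4* lists alone had a median of 82.6%, those in lists of both genotypes 93.8%, and those in *nrpe1* lists alone 96.4%. Listed DMRs also had fewer close neighbours in the same list in *nrpe1*. Within 10 kb of another DMR of the list lay 20%, 18.2% and 15.4% in *nrpe1* and 29.8%, 29.1% and 30.9% in *ago4*. The *ago4* lists are longer, and the part of list size was not tested.

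**Figure D5:**
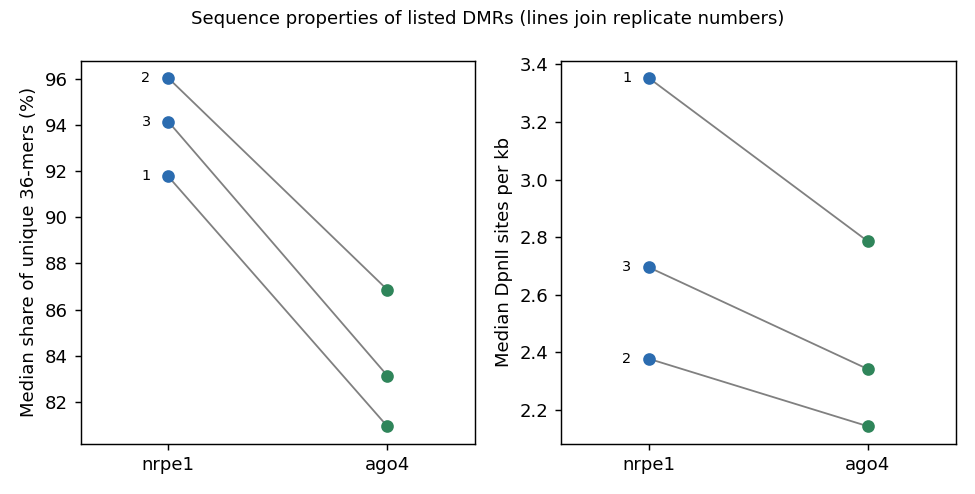
Median share of unique 36-base words (left, percent) and median *Dpn*II sites per kb of the DMR with 250 bp on each side (right) in *nrpe1* and *ago4* lists, with lines that join libraries of the same replicate number. Neither axis starts at 0, and all lines fall from *nrpe1* to *ago4*.

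The *nrpe1* lists were shorter than the *ago4* lists, which held 215, 265 and 207 DMRs. The ratio of *nrpe1* to *ago4* was 0.233, 0.664 and 0.314 in replicates 1, 2 and 3, with a geometric mean of 0.365 (two-sided exact sign-flip test, p = 0.25, n = 3 pairs, lower in 3 of 3). These are raw numbers, not corrected for the number of reads or called interactions of a library. Such differences and the loss of Pol V or AGO4 cannot be told apart from list sizes alone.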

How the data were processed

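Hi-C libraries of *nrpe1* and *ago4* seedlings (3 each) were analysed. According to the study's methods, read ends with unique alignment were mapped to TAIR10 with Bowtie and paired. Contacts were counted between windows of 250 bp, and regions without reads in a control library were removed. A score that scales with the reads per called interaction of a library chose the contacts for overlaps, so list size can move with depth. The methods give a default score cutoff for overlaps and a looser one for contacts of promoters with DMRs, and which of them made these lists is not named. The authors deposited, for each library, the chromosome, start and end of *nrpe1* DMRs with interactions. Each line also holds 2 unlabelled numbers, which were not used. The deposited *ago4* RNA table holds a comparison by the authors (log fold change, mean log CPM, p-value) and was not used.

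In TAIR10.1, the first base of 541 of 541 DMRs and the base before the deposited end were C or G. Starts were therefore read as counted from 1, and the last base as 1 before the deposited end. Genes come from RefSeq for TAIR10.1, which was used without transposon annotation. A centromere was placed at the centre of the 1 Mb window with fewest protein-coding genes. Shares and medians of each list were compared within replicate numbers, as the study's methods pair replicates, by exact sign-flip tests (smallest p 0.25). Calculations ran in Python 3.11.15 with pandas 2.3.3, scipy 1.17.1 and numpy 2.4.6, figures were drawn with matplotlib 3.10.9, and the code was tested on simulated lists. DMRs named are those in all 3 *nrpe1* lists, the shortest and longest, and the 3 windows of 1 Mb with most entries. The DMRs and gene lists were chosen with earlier results of these data known. Alternatives left out replicates, DMRs near centromeres, DMRs under 250 bp or the first 10 kb of chromosome 2 (added after the data were seen), merged DMRs in 1 bin of 250 bp, dropped the pairing, or changed distances and overlap rules.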

Additional observations from a re-analysis of the deposited data

How the results depend on the processing

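Of 115 alternatives over 14 results, 101 kept the sign of the main difference or, for recurring DMRs only, a count within 1.5 times of the main count. Alternatives without the replicate block have the same mean difference by construction, so they could not turn. Size was not part of the rule for differences. The centromere share, for example, counts as kept at 6.86 against 2.10 percentage points. Without replicate 3, differences between *nrpe1* and *ago4* turned for median length (15.2 bp, range over left-out replicates -33.8 to 15.2 bp), the share on chromosome 1 (-1.14 to 1.72 percentage points) and on chromosome 3 (-0.15 to 1.52), and without replicate 1 or 3 for the share in protein-coding genes (-0.339 to 2.03). With DMRs near centromeres left out the differences turned on chromosome 1 (-2.98) and chromosome 3 (-0.992). With DMRs under 250 bp left out they turned on chromosome 3 (-0.988), chromosome 5 (0.122) and for *Dpn*II sites (-0.0599 per kb), which also turned with 1 kb flanks (-0.0606 per kb). With any annotated gene the gene share turned (-0.337). The cause was not tested. Recurring DMRs numbered 15 to 54 when a replicate was left out. Without the replicate block, an exact permutation test of 3 against 3 lists gave the same mean difference on chromosome 4 (6.37 percentage points), with p = 0.1, the smallest it allows, as for the number of DMRs and for unique words. Same-numbered *nrpe1* and *ago4* lists had correlations of deviations of 0.159, 0.111 and -0.00483, and replicate 3 correlated best with *ago4* replicate 2, so the numbers are not shown to pair the samples. Library depth was not known here, so a contact absent from a list may have been undetected. The part of depth in list size was not tested.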
